A study of Mus musculus with 8 samples.

Results

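The genes described here encode the proteasome, its immune form and its regulators, 48 of the 23420 gene symbols counted. They were chosen by symbol alone, as every symbol that starts with Psma, Psmb, Psmc, Psmd, Psme, Psmf or Psmg followed by a digit, leaving out Psmb11. By role there were 14 core members, 5 immune members, 27 regulatory members and 2 others. The core members were 7 alpha ring genes, 4 non-catalytic beta ring genes and 3 constitutive catalytic genes. The immune members were Psmb8, Psmb9, Psmb10, Psme1 and Psme2. The regulatory members were 6 ATPases, 11 non-ATPase subunits, 3 chaperones of the regulatory particle, 4 chaperones of core assembly, the activators Psme3 and Psme4, and the regulator Psmf1. The 2 others were Psma8, a germline alpha subunit, and Psmc3ip, which fits the symbol rule but encodes a meiotic recombination factor and is no proteasome subunit.

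Transcripts were measured by RNA sequencing in thymocytes, the T cell precursors of the thymus, of wild-type mice. The 8 libraries fall into 4 groups of 2: DP thymocytes and whole thymocytes of mice named B6, and the same 2 populations of mice named BALB. DP thymocytes had been sorted as CD4+ CD8+ cells that lacked CD69 and stained at a low or medium level with H57, which binds the beta chain of the T cell receptor; whole thymocytes are a mixture of all stages with the few other cells of the suspension. The library names give the strains without a substrain, and no label gives age, sex or the animal behind a replicate. The p-values therefore measure only the spread between these libraries, which may be technical, except in BALB whole, whose replicates differ in the sex-linked transcripts given below. The main fit pools that spread over all 4 groups, so a p-value within B6 also takes in the spread between BALB replicates.

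The proteasome is a barrel of alpha and beta rings that cuts proteins marked with ubiquitin, capped by a regulatory particle whose ATPases unfold the substrate and feed it in. Psmb5, Psmb6 and Psmb7 encode its constitutive proteases; in lymphoid cells, and in other cells under interferon gamma, Psmb8, Psmb9 and Psmb10 take their places in that order, and this immunoproteasome favours peptides that bind MHC class I. Psme1 and Psme2 encode the alpha and beta chains of PA28, a cytosolic activator that is also induced by interferon gamma. In the thymus, cortical epithelial cells carry a further catalytic chain, Psmb11, while thymocytes are the cells that are selected on the peptides.

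Libraries held 2632083 to 5974684 counts in genes. Replicate 1 of BALB DP stood apart: the ribosomal transcript Rn45s took 3.14% of its counts in genes, against 5.11% to 8.35% in the other 7 libraries. It was also the deepest library. Of its reads 30.8% fell in genes, against 22.6% to 26.3% in the other 7, and 12.8% were not aligned, against 14.6% to 21.2%. Replicate 1 of BALB whole held 12313 counts of Xist, the transcript of the inactive X, and 0 of the Y-linked Ddx3y. Replicate 2 of BALB whole held 203 counts of Xist and 725 of Ddx3y. The remaining libraries held 6 to 24 counts of Xist and 444 to 1177 of Ddx3y. Of the 48 members 46 passed the filter on low counts, among 11409 genes tested. Psmd10, a chaperone of the regulatory particle, had 0 counts in all 8 libraries, which allows up to 0.093 CPM, counts scaled for library size, for counting error alone; the gene annotation behind the counts is not known here, and a symbol can also be at 0 because of it. Psma8 had 9 counts in all.

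Per length of exon, the immune members fell into a high and a low group. Averaged over the 8 libraries, Psmb8 reached 117 ± 8.62 CPM per kb (SD, n = 8 libraries) and Psme1 121 ± 30.8 CPM per kb. The level of Psmb9 was 12.7 ± 2.86 CPM per kb, that of Psme2 15.0 ± 6.18 and that of Psmb10 16.7 ± 3.63. Only Psmd4, which encodes a ubiquitin receptor of the regulatory particle, stood higher, at 146 ± 33.5 CPM per kb. The 3 highest levels differed by less than the spread over libraries of Psmd4.

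Core members ranged from 10.5 CPM per kb (Psma3) to 75.2 (Psmb6), with a median of 39.3 CPM per kb. The regulatory members that passed the filter ranged from 7.30 (Psmf1) to 146, with a median of 35.7 CPM per kb. The ATPases lay between 25.6 CPM per kb for Psmc2 and 89.6 for Psmc3. Psmd5 and Psmd9, chaperones that help to build the ATPase ring, were at 7.89 ± 1.23 and 8.27 ± 1.24 CPM per kb. The 4 Psmg genes, whose products assemble the alpha ring, lay between 10.7 (Psmg3) and 29.5 CPM per kb (Psmg4). These levels are understated where a transcript shares sequence with another gene, because reads that matched more than 1 place were not counted. The share of windows of 50 bases also present in another annotated transcript was 57.1% for Psmb5, 55.8% for Psmb3, 55.6% for Psme2 and 55.4% for Psma5, but 5.83% for Psmb8 and 14.1% for Psme1.

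**Figure D1:**
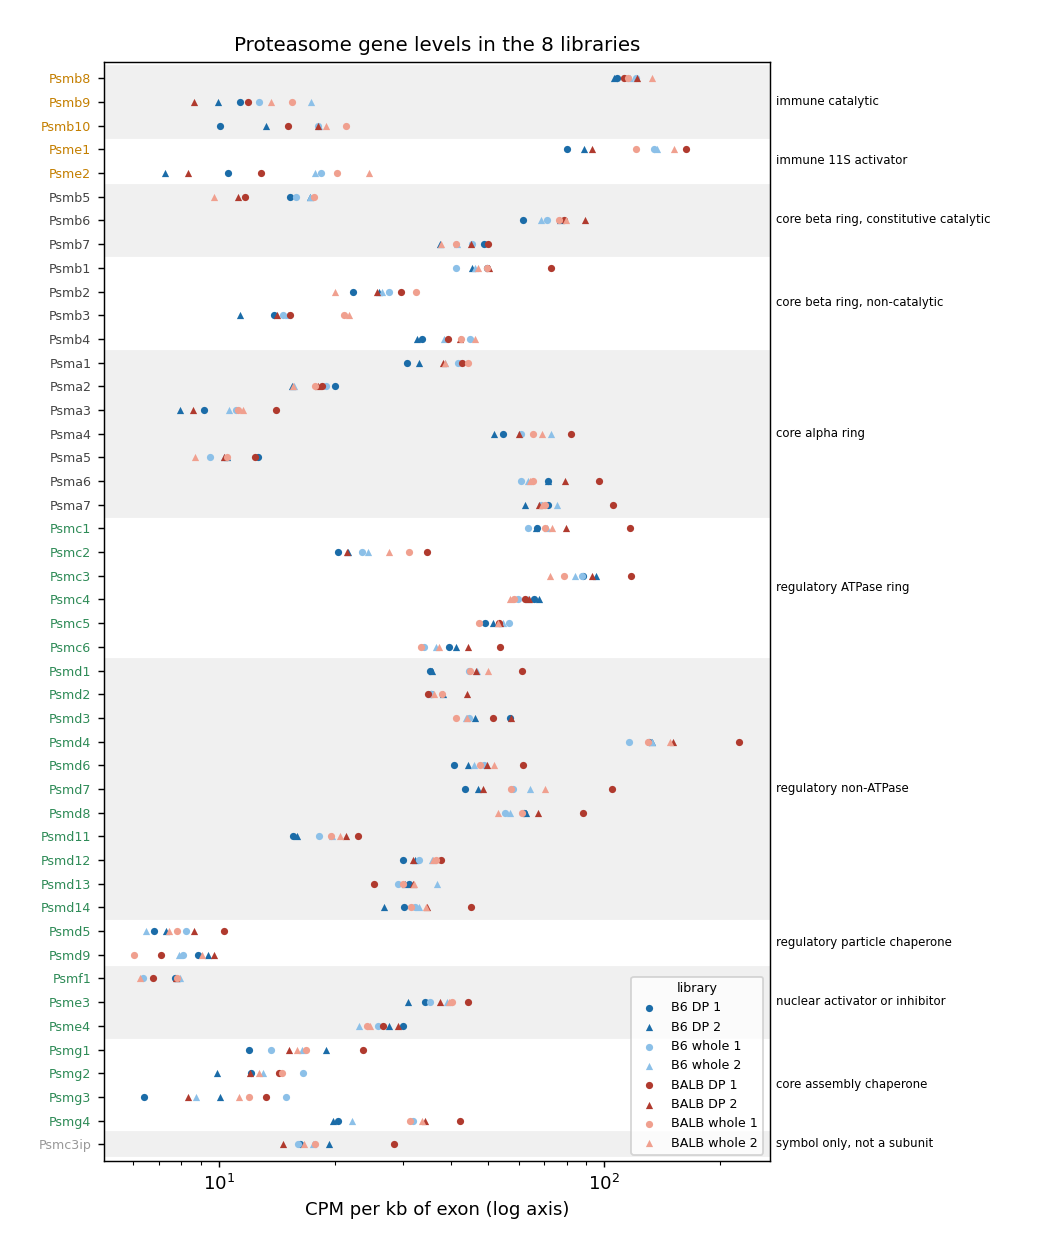
Level of each tested proteasome gene in each of the 8 libraries, in CPM per kb of exon on a log axis, grouped by role; circles are replicate 1, triangles replicate 2, and colours mark strain and population. Psmb8, Psme1 and Psmd4 lie at the right end, and the dark red circles of BALB DP replicate 1 are the rightmost points for 24 of the 46 genes.

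The 3 immune catalytic genes stood in different ratios to the constitutive genes whose products they replace. Psmb8 exceeded Psmb5 in all 8 libraries, with ratios of CPM per kb of 7.04 and 6.13 in B6 DP, 7.62 and 6.78 in B6 whole, 9.62 and 10.9 in BALB DP, and 6.48 and 13.7 in BALB whole. The 2 other pairs went the opposite way in every library. The ratio of Psmb9 to Psmb6 was 0.184 and 0.130 in B6 DP, 0.179 and 0.253 in B6 whole, 0.152 and 0.0968 in BALB DP, and 0.204 and 0.172 in BALB whole. The ratio of Psmb10 to Psmb7 was 0.207 and 0.352 in B6 DP, 0.398 and 0.440 in B6 whole, 0.303 and 0.400 in BALB DP, and 0.518 and 0.506 in BALB whole. In both strains the Psmb10 ratio was thus higher in both whole libraries than in both DP libraries. With 2 libraries a group an exact permutation test cannot reach p of 0.05, so none was made; the smallest 2-sided p it allows is 0.333.

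Geometric means over the 8 libraries were 8.21 for Psmb8 over Psmb5, 0.165 for Psmb9 over Psmb6 and 0.377 for Psmb10 over Psmb7. The shared sequence of Psmb5 with Psmb5-ps bears on the first: with the number of windows unique to each gene in place of exon length, a choice made after the data were seen, the ratio of Psmb8 to Psmb5 was 3.65, from 2.73 to 6.09. The same setting gave 0.179 and 0.270 for the other pairs. Psmb8 remained above Psmb5, and the other 2 below their partners, in all 8 libraries.

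**Figure D2:**
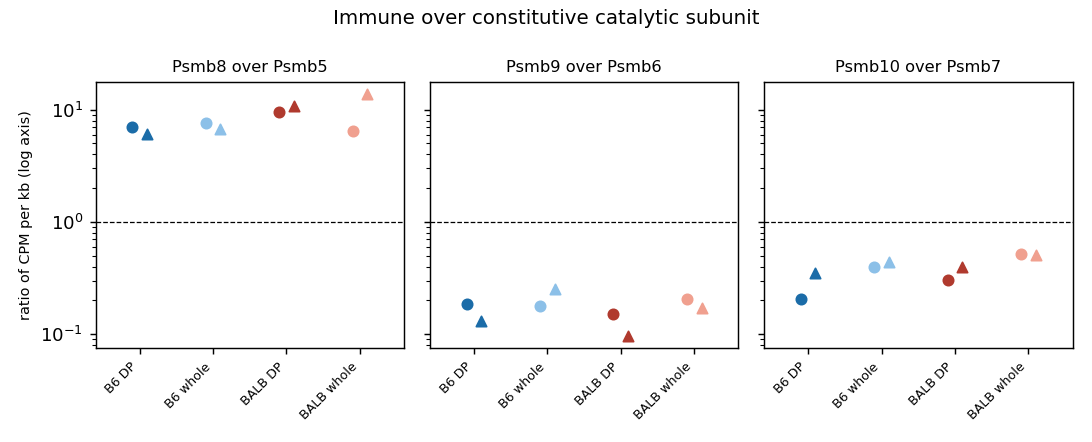
Ratio of the CPM per kb of each immune catalytic gene to that of the constitutive gene it replaces, on a log axis with a dashed line at equality; circles are replicate 1 and triangles replicate 2. Psmb8 over Psmb5 lies between 6.13 and 13.7, Psmb9 over Psmb6 between 0.0968 and 0.253, and Psmb10 over Psmb7 between 0.207 and 0.518.

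Whole thymocytes were compared with DP thymocytes in each strain, which sets the mixture of all stages against 1 sorted stage. The mixture holds DP cells as well, and any effect of the sort itself cannot be told apart from that of the population. The PA28 beta gene Psme2 was the member that rose in both strains, 2.07-fold in B6 and 2.001-fold in BALB. In B6 it was the only one of 46 members called, whereas 10.2% of all tested genes were called, 6.89% higher and 3.27% lower. In BALB 1 member rose and 4 fell, where 17.2% of all genes were called, 10.6% higher and 6.59% lower. Neither total was above the share of all genes. In such bulk samples, fewer cells of a type and less RNA per cell cannot be told apart.

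Psme2 was counted at 10.4 and 7.08 CPM in B6 DP, 18.0 and 17.4 in B6 whole, 12.6 and 8.15 in BALB DP, and 19.8 and 24.0 in BALB whole. All 4 whole libraries lay above all 4 DP libraries. The log2 fold change was 1.05 ± 0.26 (SE) in B6, with an adjusted p of 0.0268 by edgeR's quasi-likelihood test, Benjamini-Hochberg adjusted over all genes tested, and 1.001 ± 0.25 in BALB with an adjusted p of 0.0158. These values rest on 21 to 96 counts a library. The call in B6 was lost with the DESeq2 Wald test (adjusted p = 0.0652) and when any 1 of the 4 B6 libraries was left out (log2 fold changes of 0.79 to 1.31, adjusted p of 0.0522 to 0.242 by edgeR's quasi-likelihood test). The call in BALB was lost without replicate 2 of BALB whole (0.86, adjusted p = 0.114).

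Psme1, the alpha chain of the same activator, was at 88.8 and 98.7 CPM in B6 DP and at 150 and 152 in B6 whole. In BALB it was at 181 and 104 in DP and at 135 and 168.5 in whole, so that the groups separated in B6 and overlapped in BALB. The log2 fold change was 0.69 ± 0.21 in B6 (adjusted p = 0.0601 by edgeR's quasi-likelihood test, Benjamini-Hochberg adjusted). It was 0.07 ± 0.20 in BALB (adjusted p = 0.857), with a 95% interval from -0.38 to 0.51. The B6 value was called by the DESeq2 Wald test (adjusted p = 0.0318). By edgeR's quasi-likelihood test it was called with upper-quartile scaling (adjusted p = 0.0395) and with no filter (adjusted p = 2.6e-05). The same test called it with the 4 B6 libraries alone (0.70, adjusted p = 7.4e-06). It was not called with DESeq2's scaling, the strict filter, limma-voom or the replicate block. The B6 log2 fold change was also 0.69 without BALB DP replicate 1. Without that library the BALB log2 fold change became 0.54, with an adjusted p of 0.0150.

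Among the immune proteases, Psmb10 was at 13.2 and 17.4 CPM in B6 DP, 23.7 and 23.9 in B6 whole, 19.8 and 23.7 in BALB DP, and 28.01 and 24.96 in BALB whole. Whole libraries were above DP libraries in each strain, with log2 fold changes of 0.62 in B6 and 0.31 in BALB, neither of which passed the test (adjusted p = 0.0721 and 0.295 by edgeR's quasi-likelihood test). Psmb9 was at 15.4 and 13.5 CPM in B6 DP, 17.2 and 23.5 in B6 whole, 16.1 and 11.6 in BALB DP, and 21.0 and 18.5 in BALB whole. Its groups did not overlap in either strain, and its log2 fold changes of 0.51 and 0.46 did not pass the test either (adjusted p = 0.206 and 0.195 by edgeR's quasi-likelihood test). Psmb8, at 172.5 to 217 CPM over the 8 libraries, had the smallest differences of the 3, 0.15 in B6 (95% interval -0.09 to 0.38) and 0.08 in BALB (-0.15 to 0.32). All 5 immune members had positive log2 fold changes in both strains, with medians of 0.62 in B6 and 0.31 in BALB, beside medians over all genes of 0.0023 and -0.0042. Without replicate 1 of BALB DP the immune median in BALB was 0.54, and without replicate 1 of BALB whole 0.22.

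**Figure D3:**
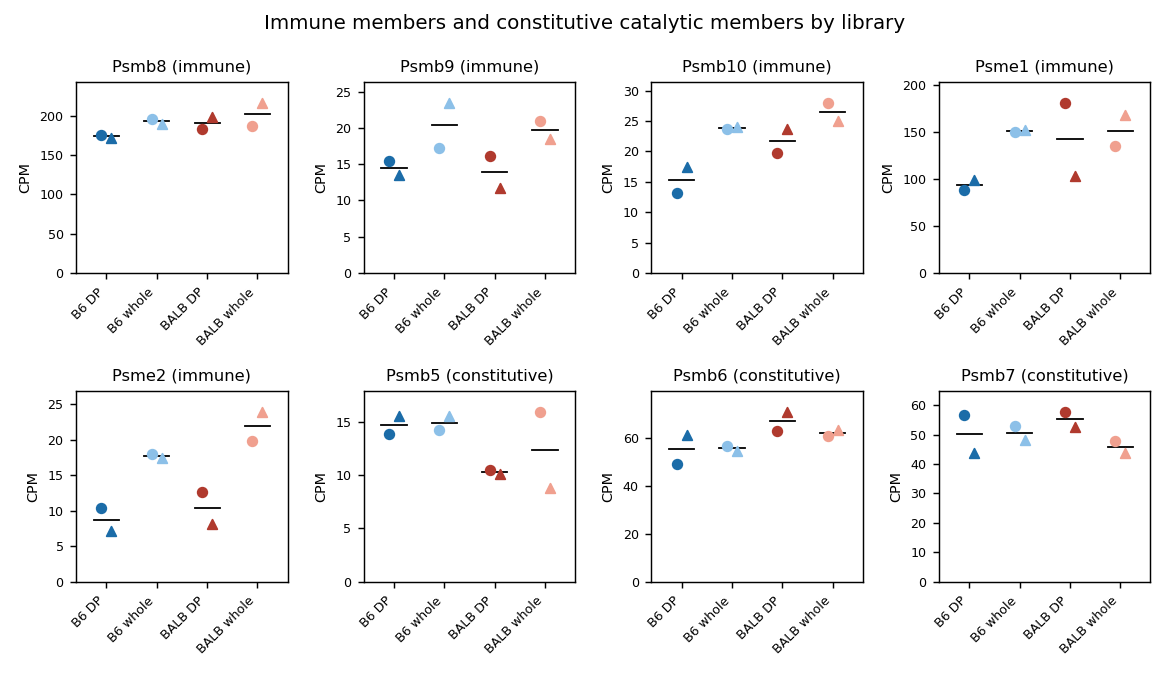
CPM of the 5 immune members and the 3 constitutive catalytic members by group, on linear axes from 0; circles are replicate 1, triangles replicate 2 and bars the mean of 2 libraries. For Psme2 both whole libraries lie above both DP libraries in each strain, and for Psme1 the BALB DP libraries lie apart at 181 and 104 CPM.

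The constitutive proteases did not pass the test in either strain. In B6 their log2 fold changes were 0.01 for Psmb5, 0.0042 for Psmb6 and 0.02 for Psmb7, with 95% intervals that reached from -0.56 to 0.58 for Psmb5, from -0.31 to 0.32 for Psmb6 and from -0.32 to 0.36 for Psmb7. In BALB they were 0.26, -0.10 and -0.28, and the first became -0.25 without replicate 1 of BALB whole. The median over the 14 core members was 0.07 in B6 and -0.10 in BALB, and 10 of 14 against 4 of 14 were positive. The BALB median turned to 0.03, with 8 of 14 positive, without replicate 1 of BALB DP, and was -0.24 without replicate 1 of BALB whole. The largest positive core value in BALB was that of Psmb3, a non-catalytic beta subunit, at 0.53 ± 0.21 (adjusted p = 0.106 by edgeR's quasi-likelihood test, Benjamini-Hochberg adjusted). It was at 11.7 and 10.9 CPM in BALB DP and 16.2 and 16.7 in BALB whole.

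Psma6 was the core member that fell in BALB. This alpha ring gene was at 112 and 90.8 CPM in BALB DP and at 74.9 and 73.7 in BALB whole, and its log2 value fell by 0.46 ± 0.13 (adjusted p = 0.0281 by edgeR's quasi-likelihood test, Benjamini-Hochberg adjusted). In B6 it was at 82.2 and 82.0 CPM in DP and at 70.0 and 73.0 in whole, which is also lower without overlap but was not called.

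Regulatory members that fell in BALB were 2 ATPases and 1 non-ATPase subunit. Psmc3 was at 192 and 152 CPM in BALB DP and at 129 and 118 in BALB whole, a log2 fold change of -0.49 ± 0.13. Psmc6 was at 119.8 and 99.0 CPM in BALB DP and at 74.9 and 83.1 in BALB whole, a log2 fold change of -0.48 ± 0.13. Psmd8, a subunit of the lid that holds the deubiquitinase, was at 136 and 104 CPM in BALB DP and at 94.2 and 81.6 in BALB whole, a log2 fold change of -0.46 ± 0.14. Adjusted p-values by edgeR's quasi-likelihood test, Benjamini-Hochberg adjusted were 0.0203 for Psmc3, 0.0249 for Psmc6 and 0.0434 for Psmd8. For these 3 and for Psma6, replicate 1 of BALB DP held the highest level of the 8 libraries. Without it the log2 fold changes were -0.31 for Psmc3, -0.33 for Psmc6, -0.24 for Psmd8 and -0.30 for Psma6, and none of the 4 was called (adjusted p of 0.0817 to 0.257 by edgeR's quasi-likelihood test). The 4 calls were lost as well without replicate 1 of BALB whole, with log2 fold changes of -0.57 to -0.41 (adjusted p of 0.0598 to 0.150), and without replicate 2, with -0.56 to -0.36 (adjusted p of 0.0618 to 0.229). All 4 were also lost when the spread was estimated from the 4 BALB libraries alone.

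Most regulatory members were not called in either strain. Over the 26 tested regulatory members the median was 0.08 in B6, with 15 positive, and -0.18 in BALB, with 5 positive. The BALB median was -0.10, with 8 positive, without replicate 1 of BALB DP. The extremes in B6 were Psmg3 at 0.49 and the nuclear activator gene Psme4 at -0.23, neither called. Psme4 was lower in whole libraries without overlap in both strains, at 195 and 179 CPM in B6 DP, 168 and 150 in B6 whole, 173 and 189 in BALB DP, and 157.5 and 161 in BALB whole. Psmd7, whose product pairs with the lid deubiquitinase Psmd14, was at 68.7 and 74.5 CPM in B6 DP and 91.5 and 102 in B6 whole, a log2 fold change of 0.43 ± 0.27. It was at 165 and 76.5 in BALB DP and 90.8 and 111 in BALB whole, so that the 2 BALB DP replicates lay on either side of both whole libraries.

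**Figure D4:**
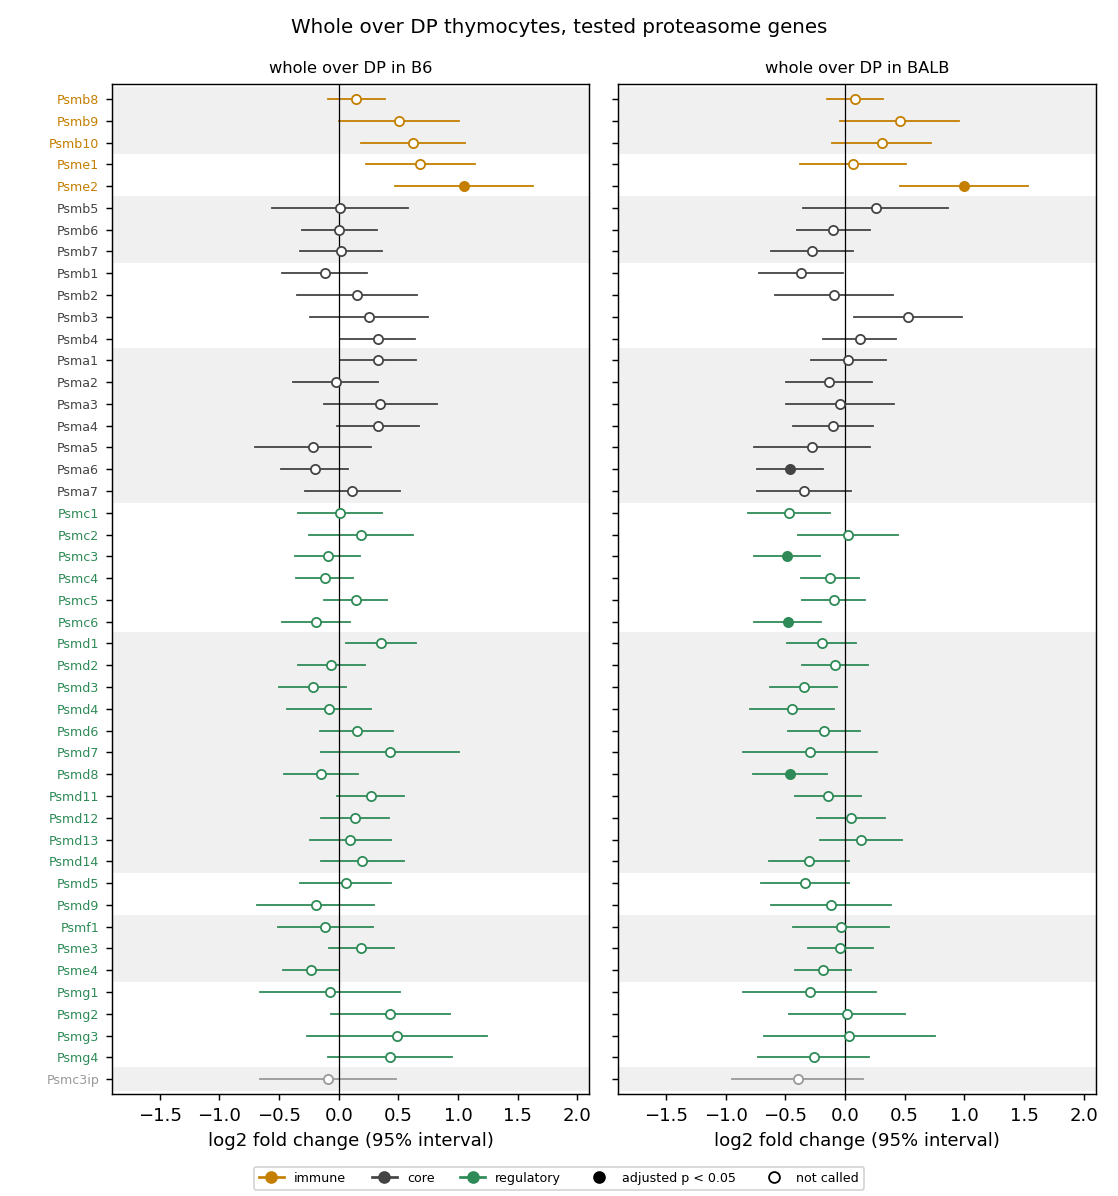
Log2 fold change of whole over DP thymocytes for each tested member in B6 (left) and BALB (right), with 95% intervals from the quasi-likelihood fit; filled points have an adjusted p under 0.05 and colours mark immune, core and regulatory members. Psme2 is the filled point on the right of 0 in both panels, at 1.05 and 1.001, and Psma6, Psmc3, Psmc6 and Psmd8 are the filled points on the left in BALB.

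The order of the libraries was also counted. In B6, 22 of 46 members (47.8%) had both whole libraries above both DP libraries, which holds for 30.8% of all tested genes, and 10 (21.7%) had both below, against 30.5% of all genes. In BALB, 5 members (10.9%) were above without overlap, against 27.6% of all genes, and 17 (37.0%) were below, against 25.1%. With replicate 2 as the only BALB DP library, 18 members (39.1%) were above and 20 (43.5%) below, against 39.7% and 39.2% of all genes. The 5 were Psmb3, Psmb4, Psmb9, Psmb10 and Psme2, and they are named, as are the next 4, after their values were seen. Psmc5, Psmd11, Psmd14 and Psmg4 were above in B6 and below in BALB (8.70% of members, 2.75% of all genes), and no member was below in B6 and above in BALB (2.45% of all genes). The difference between the strains was tested itself, as the interaction, further on.

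Many markers of other cell types moved with the population. For comparison, 6.89% of all tested genes rose and 3.27% fell in whole against DP in B6. In BALB 10.6% rose and 6.59% fell. The summed level of 12 myeloid and dendritic cell markers was 23.9 to 39.8 CPM in the DP libraries and 112 to 158.5 in the whole libraries, and 8 of the 10 tested rose in B6 and 7 in BALB. Batf3 was at 0 in every DP library and at most 0.968 CPM in whole. For 6 B cell markers the sums were 3.11 to 10.97 CPM in DP and 15.98 to 26 in whole. Of the 5 tested, 3 rose in B6 and 4 in BALB. Cd79b, at 8.5 and 7.8 CPM the largest part of the B6 DP sums, had log2 fold changes of -0.04 in B6 and -0.02 in BALB. For 10 thymic epithelial markers the sums were 9.32 to 10.5 in DP and 38.5 to 110.3 in whole, with Foxn1 and Krt14 at 0 in every DP library. Of the 8 tested, 5 rose in B6 and 7 in BALB, and Epcam had a log2 fold change of -0.06 in B6. Mature thymocyte markers summed to 204 to 276 CPM in DP and 551 to 719 in whole, and 14 interferon response genes to 110.2 to 151 in DP and 251 to 283 in whole. Of the 13 interferon genes tested, 10 rose in B6 and 11 in BALB. Igtp, at 71.9 and 71.75 CPM in B6 DP, had log2 fold changes of 0.04 in B6 and 0.70 in BALB. Erythroid markers summed to 4.27 to 17.7 CPM over the 8 libraries; the globin symbols Hba-a1, Hba-a2, Hbb-b1 and Hbb-b2 were at 0 in all 8, so they say nothing of either population. Endothelial and mesenchymal markers summed to 124 to 171.5 CPM, of which Pecam1 made up 120 to 156. Within that list Col3a1 was at 0 in every DP library and at 4.24 to 5.07 CPM in whole, and 2 of the 4 tested rose in B6 and 1 in BALB. Of the 8 DP markers 6 fell in B6 and 7 in BALB, in whole against DP. The part of these cells and of the interferon genes in the higher level of Psme2 was not tested.

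BALB was then compared with B6 within DP thymocytes. The processing notes name only the mm10 build, and any effect of strain variants on read alignment was not tested in either strain comparison. Here the members lay mostly on 1 side: 40 of 46 (87.0%) had a positive log2 fold change, against 50.3% of all tested genes, and the median was 0.32 beside 0.0028 for all genes. The medians were 0.28 for core, 0.35 for immune and 0.33 for regulatory members. Without replicate 1 of BALB DP, 38 of 46 (82.6%) were still positive, against 48.4% of all genes, but the median was 0.10, with 0.08 for core, 0.14 for immune and 0.12 for regulatory members. Of the 46, 4 were called higher in BALB and none lower, where 13% of all genes were called, 6.85% higher and 6.14% lower. Groups did not overlap for 23 members (50%) that were higher in BALB and 2 (4.35%, Psmb5 and Psmc4) that were lower, and each direction held 26.1% of all genes. With replicate 2 as the only BALB DP library, 27 members (58.7%) were above both B6 DP libraries, against 39% of all genes, and 5 (10.9%) below both, against 38.2%.

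The called members were all regulatory. Psmd1, the large scaffold subunit at the base of the regulatory particle, was at 110.2 and 111 CPM in B6 DP and at 191 and 145 in BALB DP, a log2 fold change of 0.61 ± 0.13. Psmc1, an ATPase, was at 106.4 and 106 CPM in B6 DP and 186 and 127 in BALB DP, a log2 fold change of 0.57 ± 0.16. Psmd11, a lid subunit, was at 46.1 and 47.3 CPM in B6 DP and 68.0 and 63.7 in BALB DP, a log2 fold change of 0.50 ± 0.13. Psmg4, a chaperone of core assembly, was at 11.3 and 10.97 CPM in B6 DP and 23.5 and 19.0 in BALB DP, a log2 fold change of 0.96 ± 0.23. Adjusted p-values by edgeR's quasi-likelihood test, Benjamini-Hochberg adjusted were 0.0118 for Psmd1, 0.0349 for Psmc1, 0.0261 for Psmd11 and 0.0181 for Psmg4. For all 4, both BALB DP libraries lay above both B6 DP libraries.

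Replicate 1 of BALB DP stood apart in these genes. It held the highest level of the 8 libraries for 24 of the 46 members (52.2%), and for 22.8% of all tested genes. The members were higher in replicate 1 than in replicate 2 of that group by a median factor of 1.20, for 34 of 46 (73.9%, against 49.4% of all genes), while the median factors in the other groups were 0.990 for B6 DP, 0.973 for B6 whole and 1.02 for BALB whole. Summed over the 14 core members, it reached 807 CPM, against 589.8 to 672 in the other 7 libraries, and summed over the 27 regulatory members 2530 CPM against 1893 to 2109. The summed level of the 5 immune members was 413 CPM there, inside the range of 304 to 453 of the others.

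Without replicate 1 of BALB DP, Psmc1, Psmd11 and Psmg4 lost their calls and Psmd1 kept its call, while more members were called without replicate 2. The share of all genes called in those fits is not given here, so the change cannot be read as particular to the members. None was called when either B6 DP replicate was left out, where Psmd1 had adjusted p-values of 0.0884 and 0.104 by edgeR's quasi-likelihood test. The log2 fold changes without replicate 1 were 0.25 for Psmc1, 0.44 for Psmd11 and 0.77 for Psmg4 (adjusted p of 0.0818 to 0.232 by edgeR's quasi-likelihood test, Benjamini-Hochberg adjusted). No member was called when only the 4 DP libraries entered the fit. Whether the low share of Rn45s, the depth or the share of aligned reads of replicate 1 has a part in its proteasome levels was not tested.

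Of the immune members, Psme1 had the largest difference between the strains in DP, 0.62 ± 0.21 (adjusted p = 0.0706 by edgeR's quasi-likelihood test). It was 0.14 without replicate 1 of BALB DP (adjusted p = 0.656). The others were at 0.47 for Psmb10, 0.35 for Psme2, 0.13 for Psmb8 and 0.0016 for Psmb9, and none passed the test. Psmb5 ran the other way, at 13.8 and 15.5 CPM in B6 DP and 10.5 and 10.1 in BALB DP, a log2 fold change of -0.51 ± 0.28 (adjusted p = 0.252 by edgeR's quasi-likelihood test). Psmd7 had the largest value of the members that were not called, 0.79 ± 0.26, on BALB DP levels of 165 and 76.5 CPM against 68.7 and 74.5 in B6 DP, and 0.09 without replicate 1 of BALB DP. All 7 alpha ring genes were positive, from 0.0143 for Psma5 to 0.46 for Psma3, and none of them was called.

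**Figure D5:**
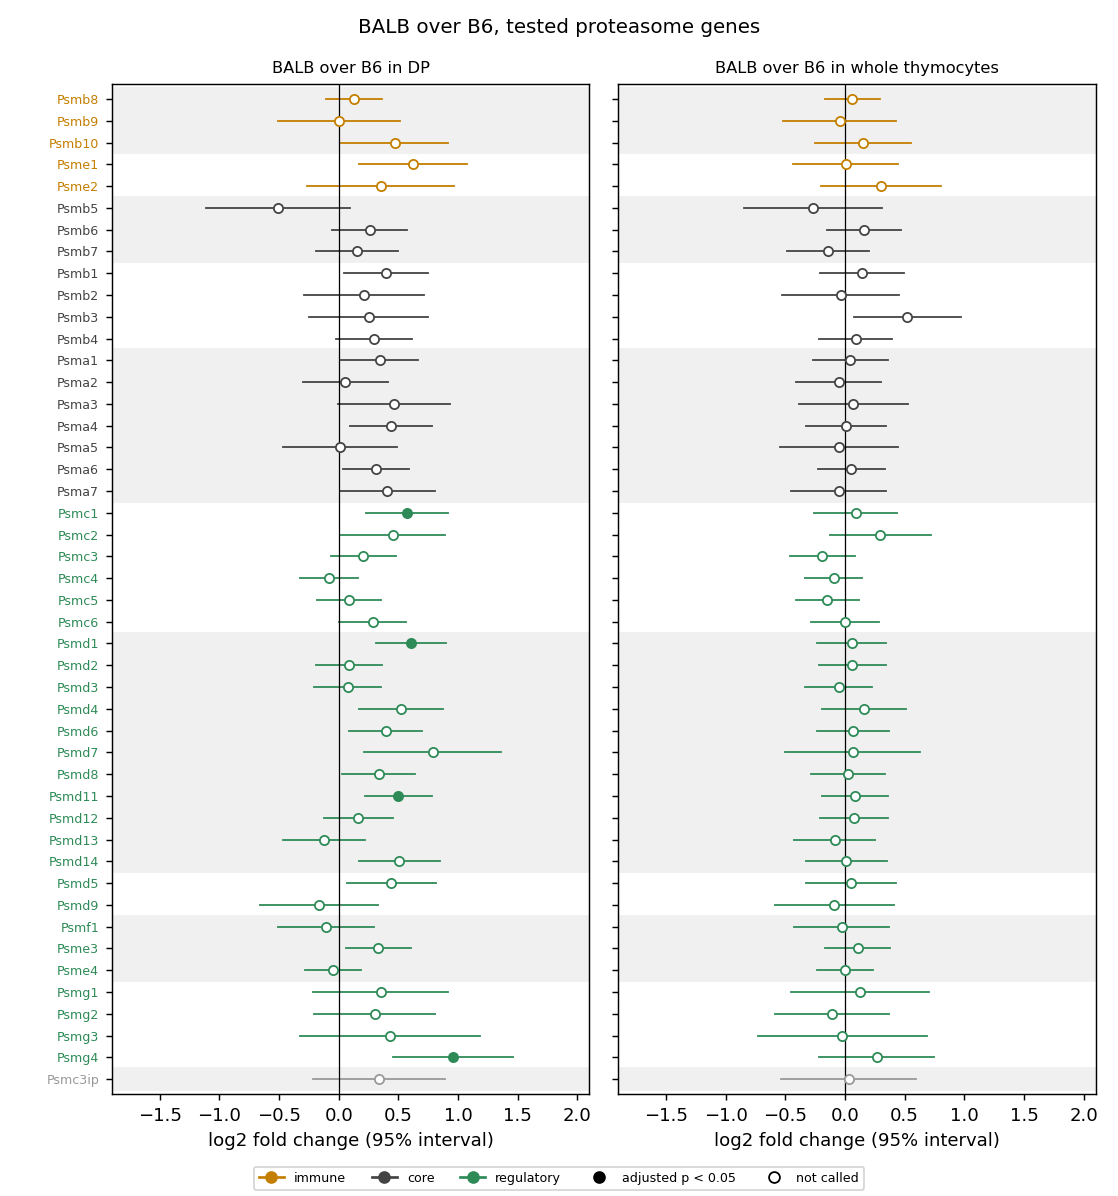
Log2 fold change of BALB over B6 for each tested member in DP thymocytes (left) and whole thymocytes (right), with 95% intervals from the quasi-likelihood fit; filled points have an adjusted p under 0.05. In DP 40 of 46 points lie above 0 and Psmc1, Psmd1, Psmd11 and Psmg4 are filled, and in whole thymocytes no point is filled and the median is 0.04.

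In whole thymocytes the measured log2 fold changes between the strains ran from -0.26 to 0.52 over the members. No member was called by edgeR's quasi-likelihood test, by the DESeq2 Wald test or by limma-voom, where 4.59% of all genes were called by the first (1.98% higher and 2.61% lower), and 1 member (2.17%) had an unadjusted p under 0.05, against 14.5% of all genes. That member was Psmb3, at 11.2 and 11.6 CPM in B6 whole and 16.2 and 16.7 in BALB whole, a log2 fold change of 0.52 (95% interval 0.07 to 0.98). The median over the members was 0.04 and that over all genes 0.02. Groups did not overlap for 11 members (23.9%) higher in BALB, against 25.6% of all genes, and for 4 (8.70%) lower, against 23% of all genes. The 95% interval was -0.17 to 0.30 for Psmb8, -0.44 to 0.45 for Psme1 and -0.20 to 0.81 for Psme2. Differences inside these intervals are compatible with the data from 2 libraries a group.

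The interaction asks whether the strain difference was the same in both populations. No member was called by edgeR's quasi-likelihood test, the DESeq2 Wald test or limma-voom (0.123% of all genes were called by the first), and 4 (8.70%) had an unadjusted p under 0.05, against 10.9% of all genes. Of the members 6 of 46 (13.0%) had a positive value, against 51.0% of all genes, and the median was -0.25 beside 0.0092 for all genes. Without replicate 1 of BALB DP, 11 of 46 (23.9%) were positive, against 50.1% of all genes, and the median was -0.14 (-0.11 for core and -0.16 for regulatory members, in place of -0.25 and -0.30). The largest values were -0.72 ± 0.37 for Psmd7, -0.69 ± 0.32 for Psmg4 and -0.62 ± 0.29 for Psme1. Leaving out that library brought Psmd7 to -0.04 and Psme1 to -0.15. For Psme2 the interaction was -0.05 (95% interval -0.83 to 0.74). Psmc5, Psmd11, Psmd14 and Psmg4, whose groups lay in opposite order in the 2 strains, were not called. Without replicate 2 of BALB DP, which leaves replicate 1 alone in that group, the value of Psme1 was -0.98, against -0.15 without replicate 1. Calls that appeared without replicate 2 rest on that 1 library, and the share of all genes called there is not given here. These comparisons share libraries, so their values are not independent of each other.

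Among 25 ubiquitin-proteasome partners, 1 (4%) fell in whole against DP in B6 and 2 (8%) in BALB, where 3.27% and 6.59% of all genes fell. None rose in either, and 2 (8%) were higher in BALB DP than in B6 DP, where 6.85% of all genes were. Shfm1, also named Sem1, encodes a small lid subunit outside the symbol rule; it was at 269 CPM in replicate 1 of BALB DP and at 77.1 to 98.2 in the other 7 libraries. Its log2 fold changes were 1.11 for BALB over B6 in DP and -1.22 for whole over DP in BALB (adjusted p = 0.0403 and 0.0219 by edgeR's quasi-likelihood test, Benjamini-Hochberg adjusted). Without that library they were 0.18 and -0.29, and neither was called (adjusted p = 0.492 and 0.163). Uchl5, a deubiquitinase of the regulatory particle, was at 49.0 and 44.8 CPM in B6 DP and 82.2 and 59.0 in BALB DP, a log2 fold change of 0.62 that became 0.34 and was not called without replicate 1 (adjusted p = 0.250 by edgeR's quasi-likelihood test). Of the shuttle factors that bring ubiquitinated proteins, Ubqln1 fell by 0.36 on the log2 scale in B6 and Ubqln2 by 0.65 in BALB, in whole against DP. The call of Ubqln1 was lost without replicate 1 of BALB whole (adjusted p = 0.0646). Pomp, which matures the core, and Nfe2l1, a transcription factor of proteasome genes, were called in none of the comparisons.

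Of 13 genes that handle peptides for MHC class I, 7 rose in whole against DP in B6 and 7 in BALB, and none fell. Among all tested genes 6.89% rose in B6 and 10.6% in BALB. Their median log2 fold changes were 0.0023 and -0.0042, and those of the 13 were 0.52 and 0.45. Nlrc5, the transactivator of class I genes, was at 10.99 and 9.37 CPM in B6 DP, 93.5 and 98.2 in B6 whole, 5.43 and 5.82 in BALB DP, and 94.2 and 93.9 in BALB whole. B2m, the class I light chain, rose by 1.21 in B6 and 1.20 in BALB on the log2 scale. Tap1, the peptide transporter gene beside Psmb9, had log2 fold changes of 0.35 and 0.45 and was not called in either strain (adjusted p = 0.187 and 0.0679 by edgeR's quasi-likelihood test, Benjamini-Hochberg adjusted). Leaving out replicate 1 of BALB DP gave 0.36 in B6, which was called (adjusted p = 0.0207), and 0.20 in BALB. Between the strains in DP, 3 of the 13 were higher in BALB, namely Calr, Canx and Irf1, and 3 were lower, among them Nlrc5 at -0.85. Among all tested genes 6.85% were higher and 6.14% lower. Without replicate 1 of BALB DP the 3 higher calls remained for Calr, Canx and Irf1 and none of the 13 was called lower, with Nlrc5 at -0.79 (adjusted p = 0.211 by edgeR's quasi-likelihood test).

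The immune members lie in 3 places of the genome (GENCODE M21, GRCm38). Psmb9 (ENSMUSG00000096727.3, chr17:34181987-34187764, minus strand) overlaps the start of Tap1 (chr17:34187553-34197225, plus strand), and Psmb8 (ENSMUSG00000024338.15, chr17:34197721-34201454, plus strand) starts 495 bases beyond the end of Tap1. The library kit does not keep the strand, so reads from the stretch shared by Psmb9 and Tap1 cannot be assigned to 1 of them. Psme1 (ENSMUSG00000022216.17, chr14:55578123-55581529, plus strand) and Psme2 (ENSMUSG00000079197.10, chr14:55587441-55591113, minus strand) lie 5911 bases apart and are transcribed towards each other. Psmb10 (ENSMUSG00000031897.9, chr8:105935735-105938444, minus strand) lies elsewhere.

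Since both PA28 chains are interferon genes, their RefSeq promoter windows (GRCm38.p6, 250 bases before to 50 after a start) were searched on both strands for 2 copies of GAAA with 2 bases of any kind between them, the core of the interferon-stimulated response element, and for TTCNNNGAA, the gamma-activated site. The first pattern was in 3.44% of 32851 windows of that length and in 5 of the 43 windows found for 40 member genes (Psmb3, Psmd4, Psmd9, Psme1 and Psmg4). The second was in 8.30% of all windows and in 3 of the 43 (Psmb8, Psmd2 and Psmg1). The windows below show the match in capitals for 2 immune members and for Psmg4, the called member with the largest difference between strains; each is written 5′ to 3′ on the plus strand, along the gene. The match of Psme1 begins at base 10 after the RefSeq start and reads on the opposite strand, that of Psmg4 begins at base 16 after it, and that of Psmb8 lies at base -97. The GENCODE spans of Psme1 and Psmb8 begin further upstream and hold these windows.
Psme1, chr14:55578493-55578522: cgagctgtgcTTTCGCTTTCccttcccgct
Psmg4, chr13:34162969-34162998: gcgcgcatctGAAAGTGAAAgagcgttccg
Psmb8, chr17:34198088-34198117: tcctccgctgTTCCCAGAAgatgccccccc

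Psme2, the member that rose in both strains, held neither pattern in its windows, nor TGACNNNGC (12.4% of all windows) or CCAAT (37.4%). That says only that these letters are not there. Its stretch before the start that lies in no annotated exon is shown on the minus strand, along the gene, with no capitals because nothing searched for was found.
Psme2, chr14:55591114-55591351: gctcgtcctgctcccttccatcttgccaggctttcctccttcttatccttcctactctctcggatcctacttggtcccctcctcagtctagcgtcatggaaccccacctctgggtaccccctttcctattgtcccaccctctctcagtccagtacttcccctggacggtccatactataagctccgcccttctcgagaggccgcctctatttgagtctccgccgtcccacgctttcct

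Psmc3ip, which shares only the symbol's form, was called in no comparison; it was at 21.0 and 24.9 CPM in B6 DP, 20.7 and 22.7 in B6 whole, 36.8 and 19.0 in BALB DP, and 22.9 and 21.5 in BALB whole. Its 2 BALB DP replicates thus differed in the same direction as most of the subunit genes. Psma8, whose product replaces Psma7 in the germline, had 0 to 4 counts a library, and Psma7 itself 56.9 to 96.5 CPM.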

How the data were processed

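The submitters' processing notes name HISAT2 2.2.0, HTSeq, the mm10 build and DESeq2 1.42.1; the version of HTSeq and its gene annotation were not given in the sources used here. Each deposited file holds raw counts, whole numbers per gene symbol, and set 10.1% to 11.9% of reads aside as not unique. The kit, TruSeq RNA Sample Prep Kit v2 per the labels, keeps no strand.

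Lines that name no gene stayed out of library sizes. Counts were fitted in R 4.3.3 with edgeR 4.0.16 (filterByExpr, TMM factors of 0.957 to 1.05, quasi-likelihood, 1 coefficient per group over all 8 libraries), with Benjamini-Hochberg adjustment over 11409 genes and a threshold of 0.05; the common biological coefficient of variation was 0.114. CPM use the TMM-scaled library sizes. CPM per kb divide by the exon length of GENCODE M21 protein-coding transcripts with a CCDS entry. Fold changes carry the fit's standard errors. The fit was tested on simulated data that gave every gene the same dispersion and held no library that stands apart. That test therefore does not bear on how far the calls here depend on such a library. The immune and constitutive catalytic members, called members and the extremes of each role were named by rule; members named for an overlap were named after their values were seen. The members and all lists were chosen with earlier results of these data known. Alternatives used DESeq2 1.42.0, limma 3.58.1 and others named in the closing section. Figures were drawn with matplotlib 3.10.9.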

Additional observations from a re-analysis of the deposited data

How the results depend on the processing

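Counts of called members changed with the processing in every comparison but that of the strains in whole thymocytes, where 0 were called under all alternatives run. For whole over DP in B6 (1 called), upper-quartile scaling gave 2, no filter 3 and the 4 B6 libraries alone 7. For whole over DP in BALB (5 called), the strict filter and the 4 BALB libraries alone gave 1 and the DESeq2 Wald test 2. For BALB over B6 in DP (4 called), no filter gave 9, the DESeq2 Wald test 2 and the 4 DP libraries alone 0. For the interaction (0 called), no filter gave 1, Psmd7. The cause was not tested. Shares of all genes called under each alternative are not given here, so these counts cannot show a change particular to the members. Leaving out 1 library at a time gave 0 to 6, 0 to 15, 0 to 22, 0 to 0 and 0 to 11 calls, in the order of the report. The log2 ratios of catalytic genes then ranged from 2.93 to 3.10, -2.68 to -2.49 and -1.47 to -1.29; with unique windows in place of exon length, an alternative chosen after seeing the data, they were 1.87 for Psmb8 over Psmb5 (3.04 with exon length) and -1.89 for Psmb10 over Psmb7 (-1.41). Of 252 class medians under alternatives, 28 moved by more than the spread between replicates, all 28 with 1 or 2 libraries left out and 8 of them without replicate 1 of BALB DP; those 8 are given in the report. The replicate block left the counts at 1, 5, 4, 0 and 0. Numbers do not pair the libraries: deviations of same-numbered libraries correlated at -0.038 to 0.057. Over single members and alternatives, 1874 values kept their side of the threshold, of which 130 changed sign without being called in either fit, 66 lost a call and 38 gained one. No called value reversed. Scaling moved the median of all genes by at most 0.066 (log2). At 21 to 96 counts a library, Psme2 is the called member nearest to the limit set by depth.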

Other observations

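Psmb11, the catalytic chain of the thymic epithelial proteasome that lies 3410 bases from Psmb5 on chromosome 14, was left out of the genes above. It had 2 and 3 counts in B6 DP, 7 and 9 in B6 whole, 4 and 3 in BALB DP, and 17 in each BALB whole library. Whole over DP was called in BALB (log2 fold change 2.25, adjusted p = 0.00897 by edgeR's quasi-likelihood test, Benjamini-Hochberg adjusted) and not in B6 (1.53, adjusted p = 0.147). The BALB call was lost without replicate 1 of BALB DP (1.81, adjusted p = 0.147) and without replicate 1 of BALB whole (2.27, adjusted p = 0.0515). The difference between the strains in this step was not called (interaction 0.72, adjusted p = 0.821).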
